A study of Rattus norvegicus with 18 samples.

Results

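The comparison described here sets the somatic cells of the seminiferous tubules of the rat testis against the cells of the interstitium, the tissue between the tubules. Its members were taken from the sample titles and are 4 of the 18 arrays of the study, namely 2 arrays of tubular somatic cells and 2 of interstitial cells, with 1 array of each of 2 types, A and B, per population. Both populations came from testes of rats 22 days old, and the labels name no strain, treatment or genotype, no number of animals and no way in which the fractions were separated. The other 14 arrays hold 7 germ cell populations from rats of the same age, cultured per the labels. They are laminin-binding and laminin non-binding germ cells, germ cells on STO feeders on days 1, 5, 10 and 20, and germ cells on MSC1 on day 20. These populations serve below only to show how widely a transcript of the somatic cells occurred. With 1 array a side there is no replicate check, so differences are given as folds between these arrays, without an error or a p-value.

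In the testis, germ cells develop inside tubules, where Sertoli cells surround and feed them and peritubular myoid cells wrap the tubule wall. The interstitium holds Leydig cells, which make testosterone from cholesterol under the control of luteinizing hormone, together with fibroblasts, macrophages and blood vessels. Interferon, a signal released on infection, switches on antiviral genes through STAT and IRF factors that bind a short element in their promoters.

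The deposited values are signals per probe set, which the authors scaled on each array to an average of 250. Signals under 50 were raised to this floor before folds were taken. A probe set or gene is called higher or lower in tubular somatic cells where the brighter side reached 250 and the fold was at least 3. Where the dim side lay under the floor, the fold is a lower bound and is written as at least that many fold. The number of arrays limits the precision of every fold.

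The arrays differed in quality measures as well as in cell type. The scale factor was 0.584 for tubular somatic and 0.391 for interstitial cells on type A. On type B it was 3.274 for tubular somatic and 1.047 for interstitial cells, so that the floor stood for an unscaled signal of 15.3 in tubular somatic and 47.8 in interstitial cells. The 3' to 5' signal ratio of Gapdh, which grows as RNA or its copies get shorter, was 11.25 for tubular somatic and 7.94 for interstitial cells on type A, with 16.7 for tubular somatic and 9.25 for interstitial cells on type B. The part of these differences in the folds was not tested. In tissue fractions like these, fewer cells of a type and less RNA of a gene per cell cannot be told apart.

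Of 31042 probe sets, 789 were higher and 983 lower in tubular somatic than in interstitial cells, which is 2.54% and 3.17%. At the level of genes, each read from its brightest probe set, 431 of 10713 measured genes were higher and 531 lower, which is 4.02% and 4.96%. Every count in a gene list below is set against these 4.02% and 4.96%. A gene counts as measured where at least 1 of both populations reached the floor. The median log2 fold over all measured genes was 0.0029. Folds of 10 or more were found for 47 higher and 93 lower genes. Across 8374 genes with a mean signal of at least 100, the log2 signals of both populations correlated with a Pearson r of 0.681, a description across genes, which are not independent replicates.

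**Figure D1:**
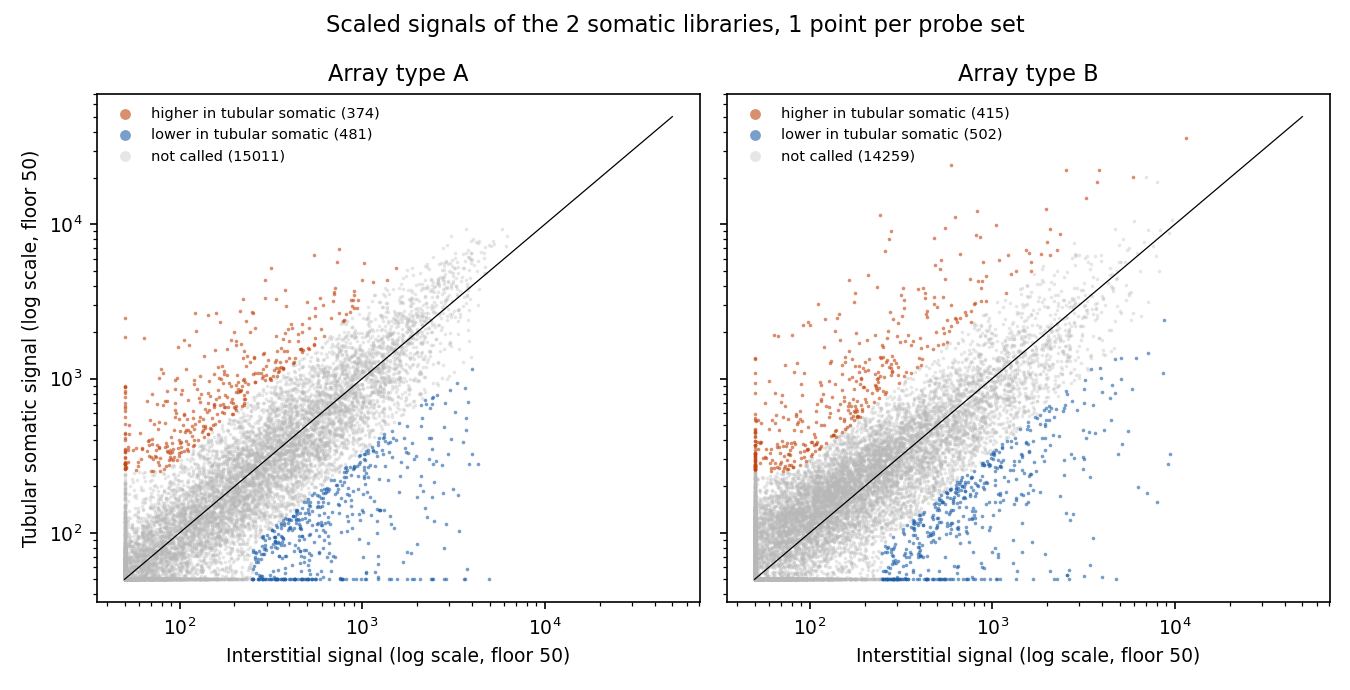
Scaled signals of tubular somatic cells (vertical axis, log scale) against interstitial cells (horizontal axis, log scale), 1 point per probe set, on array types A and B, with the line of equal signal. On type A 374 probe sets were called higher and 481 lower in tubular somatic cells, and on type B 415 higher and 502 lower, with points stacked at the floor of 50 where a side had no signal above it.

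Part of the Sertoli cell genes were higher in the tubular fraction. Of 24 Sertoli genes on the arrays 18 were measured, and 6 of these were higher in tubular somatic cells (33.3%, against 4.02% of all measured genes) and 0 lower, with a median log2 fold of 0.90 and a fold above 1 in 15. When each gene's probe sets were averaged, 4 were higher and the median was 0.63. Clu, which encodes the secreted glycoprotein clusterin, had a signal of 983 in tubular somatic cells and 94.7 in interstitial cells and was 10.4-fold higher. Inha, the alpha subunit of inhibin, the Sertoli hormone that restrains follicle-stimulating hormone, read 713 in tubular somatic against 85.2 in interstitial cells, which is 8.37-fold higher. The androgen-binding protein gene Shbg had 537 in tubular somatic cells and 68.5 in interstitial cells and was 7.83-fold higher. Secreted products thus make up most of the called Sertoli genes. Cst12, a testis cystatin, had 524 in tubular somatic cells and 77.2 in interstitial cells and was 6.79-fold higher. Dhh, the hedgehog ligand that Sertoli cells send to Leydig and myoid cells, read 2526 in tubular somatic against 439.7 in interstitial cells, or 5.75-fold higher. Wt1, a transcription factor that Sertoli cells need, stood at 1273 in tubular somatic cells and 242 in interstitial cells, 5.25-fold higher. Another probe set of Clu and another of Wt1 stayed under the floor in both fractions. In all 6 genes the tubular signal was the highest of the 9 populations of the study. In 4 it was at least 3-fold above every germ cell population, against 184 of all 431 higher genes. Of these 431 genes 103 had a germ cell population at least as bright. Calls required a bright tubular side, so no more is read from these counts.

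Other Sertoli genes were bright in both fractions. Aldh1a1, an enzyme that makes retinoic acid, read 2507 in tubular somatic against 3221 in interstitial cells. Vnn1, a pantetheinase of Sertoli cells, read 1101 in tubular somatic against 996 in interstitial cells, and Cldn11, the claudin of the blood-testis barrier, 3389.9 in tubular somatic against 1621 in interstitial cells. None of these 3 reached the 3-fold threshold, and the interstitial signal of each exceeded that of all 7 germ cell populations, whose highest values were 153 for Aldh1a1, 244 for Vnn1 and 637 for Cldn11. Gata4, a factor of Sertoli and Leydig cells alike, had 1089 in tubular somatic cells and 653 in interstitial cells. Kitlg, the stem cell factor that spermatogonia depend on, read 281 in tubular somatic against 521 in interstitial cells and was not called. The genes Amh, Sox9, Dmrt1, Gdnf, Bex1 and Espn stayed under the floor in both fractions, so these arrays give no fold for them.

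Few peritubular myoid genes were called. Of 16 on the arrays 13 were measured, 2 were higher (15.4%, against 4.02% of all measured genes) and 1 lower (7.69%, near the overall 4.96%), and the median log2 fold was 0.43. Tagln, an actin-binding protein of smooth muscle, had a signal of 1163 in tubular somatic cells and 79.6 in interstitial cells, 14.6-fold higher. Myl9, a regulatory light chain of smooth muscle myosin, read 2681 in tubular somatic against 253 in interstitial cells and was 10.6-fold higher. The defining actin and myosin genes of these cells were dim in both fractions, with Acta2 at 93.5 in tubular somatic cells and 66.8 in interstitial cells and Myh11 at 59.5 in tubular somatic cells and 89.1 in interstitial cells. Caldesmon disagreed between its probe sets, of which Cald1 had 2275 in tubular somatic against 466 in interstitial cells on a called one and 2102 in tubular somatic against 1838 in interstitial cells on another. Tpm1 was not called on the probe set read, at 1863 in tubular somatic and 915 in interstitial cells. Other Tpm1 probe sets were called higher, at 5845 against 1093 on type B and 505 against 121 on type A. Tpm2 read 721 against 1916 on type A and 150 against 55.8 on type B, both without a call. The lower gene was Cxcl12, a chemokine that attracts stem cells and leukocytes and is also made by fibroblasts. It had 58.1 in tubular somatic cells and 3762 in interstitial cells, 64.7-fold lower, and a second probe set gave 33.0 in tubular somatic against 2797 in interstitial cells.

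Part of the steroid synthesis genes were the counterpart in the interstitium. Of 19 genes of the Leydig and steroidogenic list 14 were measured, 4 were lower in tubular somatic cells (28.6%, against 4.96% of all measured genes) and 1 higher, with a median log2 fold of -1.18. Star, which carries cholesterol into the mitochondrion, read 672 in tubular somatic against 2094 in interstitial cells, 3.12-fold lower, and on its other probe set 87.5 in tubular somatic against 547 in interstitial cells. The call on its first probe set is lost when arrays are scaled to the same 75th percentile. Cyp11a1, which cuts the cholesterol side chain as the first step of synthesis, had 49.3 in tubular somatic cells and 655 in interstitial cells and was at least 13.1-fold lower. For Hsd3b1, a following enzyme of the path, the signal was 8.6 in tubular somatic cells and 2400.2 in interstitial cells, at least 48.0-fold lower. Each of these 3 genes was brightest in interstitial cells among all 9 populations. Of all 531 lower genes 121 had a germ cell population at least as bright. Hsd11b1, which interconverts active and inactive glucocorticoids in Leydig cells, read 194 in tubular somatic against 3136 in interstitial cells, 16.2-fold lower. Cyp17a1, needed to make androgens, was dim, at 4.8 in tubular somatic cells and 136 in interstitial cells, as was Lhcgr, the luteinizing hormone receptor upstream of the path, at 4.0 in tubular somatic cells and 104 in interstitial cells. Insl3 and Hsd17b3, which mark mature Leydig cells, were under the floor in both fractions. So was Nr5a1, a factor that drives steroid genes, on the probe set read, while its type B probe set had 646.5 in tubular somatic cells and 799 in interstitial cells. The higher gene of the list was Inhba, the beta A subunit of activin and inhibin, which other testis cells make as well, at 447 in tubular somatic cells and 40.4 in interstitial cells, at least 8.94-fold higher. In all, 3 of the 14 genes had a fold above 1 and 11 a fold below 1. Besides Inhba these were Fdx1, at 6519 in tubular somatic and 4675 in interstitial cells, and Scarb1, at 93.2 and 87.9. Neither of them was called.

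Genes that supply or shed cholesterol and those that metabolise steroids also leaned to the interstitium. In the cholesterol list 5 of 26 measured genes were lower (19.2%, against 4.96% of all measured genes) and 0 higher, with a median log2 fold of -0.86. Apoe, a lipid carrier of many cells including macrophages, had 51.6 in tubular somatic cells and 1222 in interstitial cells, 23.7-fold lower, and Abca1, which exports cholesterol, read 859.8 in tubular somatic against 5799.7 in interstitial cells, 6.75-fold lower. The other 3 are enzymes of synthesis, Sc5d, Hsd17b7 and Msmo1, from 3.75-fold lower to 3.02-fold lower. Folds of Hsd17b7 and Msmo1 lie near the threshold and their calls are lost under at least 2 of 3 other scalings. The lower genes of the list numbered 3 under 75th percentile and quantile scaling and 2 when each gene's probe sets were averaged. Among 14 measured genes of steroid inactivation and cytochromes, 3 were lower (21.4%) and 14 had a fold below 1, with a median log2 fold of -1.25. Besides Hsd11b1 these were Cyp1b1, which hydroxylates oestrogens, at 1155 in tubular somatic cells and 4010.4 in interstitial cells, 3.47-fold lower, and Hsd17b11, 3.17-fold lower, whose call is lost at the same 75th percentile.

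Fibroblast genes gave the lowest median of the 31 lists at the floor of 50. Of 18 on the arrays 15 were measured, 9 were lower in tubular somatic cells (60.0%, against 4.96% of all measured genes) and 0 higher, with a median log2 fold of -2.64. Pdgfra, the receptor that marks mesenchymal cells of many organs, read 42.6 in tubular somatic against 3622 in interstitial cells, at least 72.4-fold lower. Igf1, the growth factor, had 32.7 in tubular somatic cells and 2881 in interstitial cells and was at least 57.6-fold lower, and its other 2 probe sets were also called lower. Dpt, which encodes the matrix protein dermatopontin, read 43.7 in tubular somatic against 2088 in interstitial cells, at least 41.8-fold lower. Lum and Dcn encode small proteoglycans that organise collagen fibrils. Lum had 74.4 in tubular somatic cells and 1847 in interstitial cells, 24.8-fold lower, and Dcn 281 in tubular somatic cells and 4330.3 in interstitial cells, 15.4-fold lower. Vim, the filament protein of mesenchymal and Sertoli cells, had 4454 in tubular somatic cells and 2589 in interstitial cells and was not called. Of the 15 genes 13 had a fold below 1 and 2 above 1, Vim and Fbln2, the latter at 87.2 in tubular somatic and 57.0 in interstitial cells. Fbln1 was not called, at 62.0 against 73.3 on type A and 127 against 43.8 on type B. Pdgfrb, Thy1 and Ly6c were under the floor on the probe set read. A type B probe set of Pdgfrb had 252 against 340 and no call.

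The matrix itself followed. Of 35 measured genes of fibrillar and interstitial matrix 13 were lower (37.1%) and 0 higher, and 29 had a fold below 1, with a median log2 fold of -1.46. Col6a1 and Col6a3, chains of the beaded-filament collagen VI, were 26.2-fold lower and 17.7-fold lower. Col3a1, a fibrillar collagen of soft tissue, had 278 in tubular somatic cells and 3852 in interstitial cells, 13.8-fold lower. On the probe sets read, the collagen I genes differed less in fold, as Col1a1 read 315 in tubular somatic against 1971 in interstitial cells, 6.25-fold lower, and Col1a2 was 4.17-fold lower. Other probe sets of these genes were at least 8.31-fold lower for Col1a1 and 9.01-fold lower for Col1a2. Fbn1, which builds microfibrils, was 11.7-fold lower, and Ogn, a further small proteoglycan, at least 20.9-fold lower. Further called probe sets had smaller folds, 6.68-fold lower for Fbn1 and at least 6.74-fold and at least 8.51-fold lower for Ogn. Tubular somatic cells still had collagen signals above the floor, as Col1a2 shows with 875 in tubular somatic cells and 3649.7 in interstitial cells.

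Macrophage genes were the other large interstitial group. Of 32 on the arrays 26 were measured, 10 were lower (38.5%, against 4.96% of all measured genes) and 1 higher in tubular somatic cells (3.85%, near the overall 4.02%), and 24 had a fold below 1, with a median log2 fold of -1.40. The summed signal of the list was 2983 in tubular somatic and 10778.0 in interstitial cells. Cd68, a lysosomal protein of macrophages, had 56.1 in tubular somatic cells and 1047 in interstitial cells, 18.7-fold lower. Mrc1, the mannose receptor of tissue macrophages, read 173 in tubular somatic against 2358 in interstitial cells, 13.7-fold lower. Cd163, the haemoglobin scavenger receptor of resident macrophages, read 53.0 in tubular somatic and 2579 in interstitial cells on one probe set, 48.7-fold lower, and 199 in tubular somatic and 705 in interstitial cells on the other. The Fc receptor genes Fcgr2b and Fcer1g were at least 10.6-fold lower and 10.5-fold lower. Lcp1, the leukocyte actin bundler L-plastin, was the one gene higher in tubular somatic cells, at 782 in tubular somatic cells and 225 in interstitial cells, 3.47-fold higher. Several defining genes were dim even in interstitial cells, as the macrophage receptor gene Csf1r had 65.1 in tubular somatic cells and 106 in interstitial cells and the pan-leukocyte gene Ptprc 11.7 in tubular somatic cells and 126 in interstitial cells. On the probe sets read, Itgam, Cx3cr1, Tyrobp, C1qb, Cybb and RT1-Bb were under the floor in both fractions, while another Cybb probe set had 54.7 in tubular somatic cells and 644 in interstitial cells.

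Among markers of further cell types, each read from 1 probe set, few were called. Of all measured genes 4.02% were higher and 4.96% lower, so 0 calls in lists this short say nothing about a cell type. Of 15 endothelial genes 7 were measured and 0 called, for example the endoglin gene Eng, at 27.8 in tubular somatic cells and 188 in interstitial cells, while Pecam1, Vwf and 6 others were under the floor in both. Of 15 lymphocyte and mast cell genes 4 were measured and 0 called, although a second probe set of Gzmb, a granule protease of killer cells, had 22.0 in tubular somatic cells and 264.0 in interstitial cells, at least 5.28-fold lower. Of 4 red blood cell genes 2 were measured and 0 called. Germ cell genes were called lower for 2 of 11 measured, or 1 of 9 with a floor of 100, and 9 more lay under the floor on the probe set read. One of these 9 was Hspa2, a chaperone gene of spermatocytes, whose type B probe set had 107 in tubular somatic cells and 371 in interstitial cells, 3.46-fold lower. Signals above 250 in both fractions were seen for Odf2, of the sperm tail, at 375 in tubular somatic cells and 518 in interstitial cells, and for Tdrd1, of the germ line, at 303 in tubular somatic cells and 389.9 in interstitial cells. Crisp2, a sperm protein gene, read 15.4 in tubular somatic against 448 in interstitial cells, and Ldhc, the lactate dehydrogenase of germ cells, 69.5 in tubular somatic against 261 in interstitial cells. In non-binding germ cells the signals were 3811 for Crisp2 and 6938 for Ldhc. The median level of the germ cell list, taken as log2 distance from each gene's mean over 9 populations, was -3.17 in tubular somatic and -2.68 in interstitial cells, and -0.08 or above in each germ cell population.

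**Figure D2:**
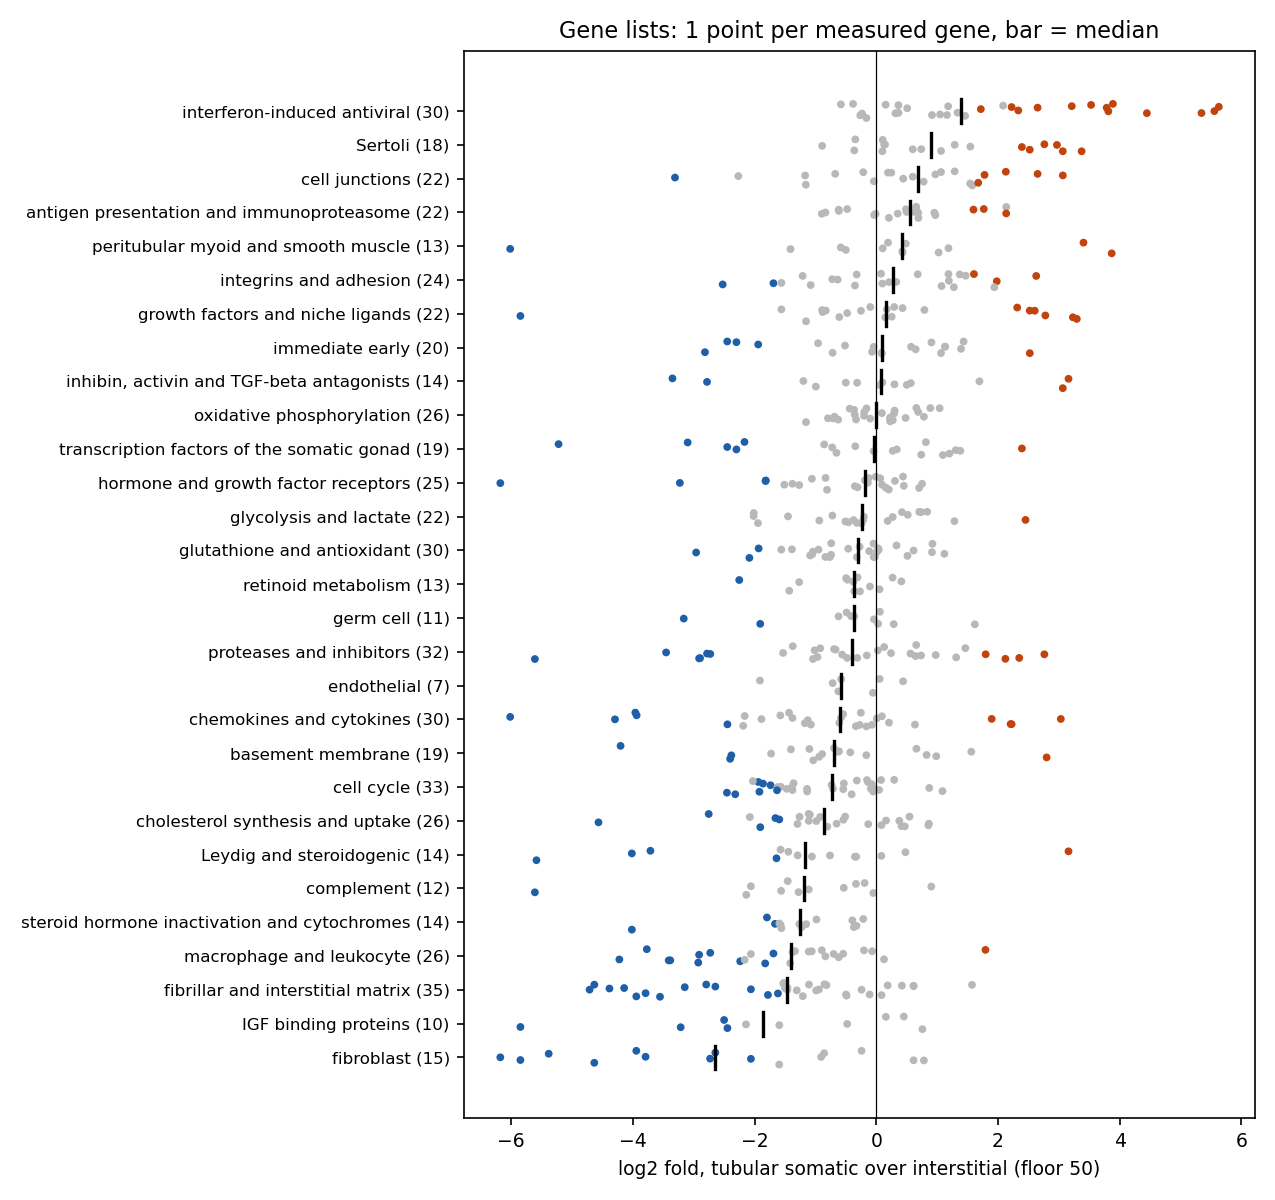
Log2 fold of tubular somatic over interstitial cells (horizontal axis, signals raised to the floor of 50) for the measured genes of 29 gene lists, 1 point per gene, ordered by the list median (bar), with the number of measured genes in brackets. Orange points were called higher, blue points lower and grey points neither. Interferon-induced and Sertoli genes have the highest medians, at 1.40 and 0.90, and fibroblast genes the lowest, at -2.64.

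The interferon-induced antiviral genes had the highest median of the 31 lists at the floor of 50, in the fraction with the lower macrophage signals. Of 32 on the arrays 30 were measured, 13 were higher in tubular somatic cells (43.3%, against 4.02% of all measured genes) and 0 lower, with a median log2 fold of 1.40. The effectors came first. Isg15, a ubiquitin-like protein that is attached to viral and host proteins, had a signal of 24229.7 in tubular somatic cells and 596 in interstitial cells, 40.7-fold higher. Gbp4, an interferon-induced GTPase, read 11458 in tubular somatic against 243 in interstitial cells, 47.1-fold higher. The dynamin-like GTPases Mx1 and Mx2 block virus replication. Mx1 had 2342 in tubular somatic cells and 166 in interstitial cells, 14.1-fold higher, and Mx2 2476 in tubular somatic cells and 32.1 in interstitial cells, at least 49.5-fold higher, while another Mx2 probe set stayed under the floor in both fractions. Oas1a, which makes the messenger that activates RNase L, read 2652 in tubular somatic against 122 in interstitial cells, 21.8-fold higher, and its relative Oasl had 936 in tubular somatic cells and 186 in interstitial cells, 5.04-fold higher. Rsad2, an antiviral enzyme known as viperin, read 1774 in tubular somatic against 191 in interstitial cells, 9.28-fold higher. Ifit3, of a family that binds viral RNA, had 690.1 in tubular somatic cells and 43.2 in interstitial cells, at least 13.8-fold higher.

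The regulators of the response were higher too. Irf7, the factor that amplifies interferon production, had 6321 in tubular somatic cells and 547 in interstitial cells, 11.6-fold higher. Stat2 and Irf9, which form the complex that carries the interferon signal to the nucleus, were both called. Stat2 had 3133 in tubular somatic cells and 499 in interstitial cells, 6.28-fold higher, and Irf9 668 in tubular somatic cells and 203 in interstitial cells, 3.29-fold higher. On type B another Irf9 probe set read 2432 in tubular somatic and 1181 in interstitial cells and was not called. Usp18, which removes ISG15 and damps the response, read 3282 in tubular somatic against 221 in interstitial cells, 14.8-fold higher. The chemokine gene Cxcl11, which attracts T cells, had 1108 in tubular somatic cells and 237 in interstitial cells, 4.67-fold higher.

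The other 17 measured genes of the list were not called. Ifi27 had 8396 in tubular somatic cells and 3049.8 in interstitial cells, Ifit2 6261 in tubular somatic cells and 3319 in interstitial cells and Bst2, the tetherin that holds virus particles at the cell surface, 1550.3 in tubular somatic cells and 1089.5 in interstitial cells. These 3 were thus bright in both fractions. Cxcl9 and Cxcl10, chemokines best known from the interferon gamma response, read 37.2 in tubular somatic against 74.8 in interstitial cells for Cxcl9 and 63.0 in tubular somatic against 70.5 in interstitial cells for Cxcl10. Irf1, a factor of the same response, had 249.6 in tubular somatic cells and 325 in interstitial cells. For the editing enzyme gene Adar the brightest type A probe set read 228 in tubular somatic and 274 in interstitial cells, whereas a type B probe set had 1102 in tubular somatic and 284 in interstitial cells.

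In all 13 called genes the tubular signal was the highest of the 9 populations, and in 12 it was at least 3-fold above every germ cell population. The exception was Stat2, which read 3102 in laminin-binding germ cells. Of all 431 higher genes 184 were at least 3-fold above every germ cell population, and 103 had one at least as bright. Calls required a bright tubular side, so no more is read from these counts. The median level of the list, as log2 distance from each gene's mean over 9 populations, was 2.67 in tubular somatic cells, 0.44 in interstitial cells and between -1.15 and -0.10 in the germ cell populations. The macrophage list, given above, went the other way, with 1 of 26 measured genes higher. The part of any leukocytes in the tubular fraction in the interferon genes was not tested.

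**Figure D3:**
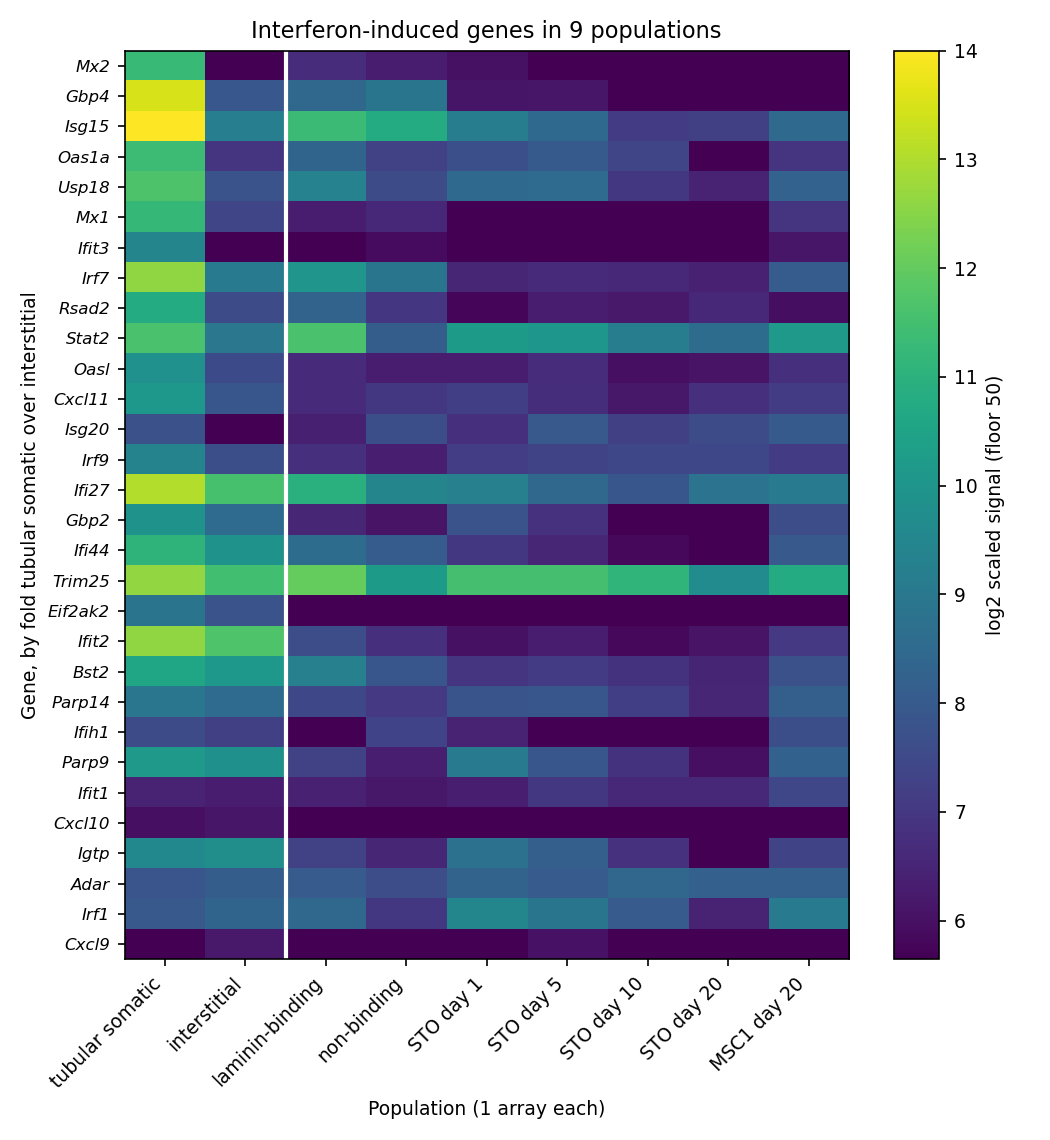
Log2 scaled signal (colour, floor of 50) of the 30 measured interferon-induced genes, ordered by the fold of tubular somatic over interstitial cells, in the 9 populations with 1 array each. The white line sets the 2 somatic populations off from 7 germ cell populations. The upper rows are brightest in tubular somatic cells, such as Gbp4 with 11458 in tubular somatic cells and 243 in interstitial cells and at most 472 in germ cells, while Trim25 is bright in most populations.

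Antigen presentation genes shifted less. Of 22 measured genes 3 were higher (13.6%, against 4.02% of all measured genes) and 0 lower, with a median log2 fold of 0.56. RT1-S3, a non-classical class I molecule of the rat, had 1949 in tubular somatic cells and 444 in interstitial cells, 4.39-fold higher. Its sequence is close to that of other class I genes, so the probe sets may read several of them. Tap1, which pumps peptides into the endoplasmic reticulum, read 595 in tubular somatic against 175 in interstitial cells, 3.4-fold higher, and Psmb10, a subunit of the immunoproteasome, 1657 in tubular somatic against 547 in interstitial cells, 3.03-fold higher. The Psmb10 call is lost under quantile normalization, and when each gene's probe sets were averaged 1 gene of the list was higher.

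Promoters of the interferon genes were searched for the interferon-stimulated response element, taken here as GAAA, any 2 bases and GAAA again, on both strands, in 250 bases before and 50 bases after the gene start (RefSeq, GRCr8). A match was present in 3.92% of 33469 rat promoters of this length. Of the 13 higher interferon genes 10 had a promoter in this set, and 5 of the 10 held a match. Of the 17 that were not called 14 had one, and 10 of the 14 held a match. All 3 higher antigen presentation genes held a match, as did 5 of 16 that were not called. The promoters of the 5 interferon genes are shown because their folds are among those described above, with each match in capitals, written 5' to 3' along the gene. The match begins 10 bases before the start in Gbp4 (chr2:233978236-233978535, plus strand), 41 in Oas1a (chr12:41330216-41330515, plus strand), 44 in Ifit3 (chr1:241527076-241527375, plus strand), 69 in Irf7 (chr1:205799974-205800273, minus strand) and 147 in Rsad2 (chr6:48788071-48788370, minus strand). In Oas1a the capitals hold 2 overlapping matches in this direction, and in the other 4 promoters they hold the reverse complement of the element.
Gbp4: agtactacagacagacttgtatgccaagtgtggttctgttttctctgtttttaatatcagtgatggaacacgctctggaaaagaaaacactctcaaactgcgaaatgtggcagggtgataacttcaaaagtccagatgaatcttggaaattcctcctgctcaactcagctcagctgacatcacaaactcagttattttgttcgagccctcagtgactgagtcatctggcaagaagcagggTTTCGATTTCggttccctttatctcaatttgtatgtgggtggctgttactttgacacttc
Oas1a: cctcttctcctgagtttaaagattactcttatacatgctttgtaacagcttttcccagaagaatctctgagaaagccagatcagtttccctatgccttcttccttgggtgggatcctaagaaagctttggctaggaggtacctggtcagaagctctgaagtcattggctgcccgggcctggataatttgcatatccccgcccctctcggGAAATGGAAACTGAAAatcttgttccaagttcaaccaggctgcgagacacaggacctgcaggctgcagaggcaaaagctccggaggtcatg
Ifit3: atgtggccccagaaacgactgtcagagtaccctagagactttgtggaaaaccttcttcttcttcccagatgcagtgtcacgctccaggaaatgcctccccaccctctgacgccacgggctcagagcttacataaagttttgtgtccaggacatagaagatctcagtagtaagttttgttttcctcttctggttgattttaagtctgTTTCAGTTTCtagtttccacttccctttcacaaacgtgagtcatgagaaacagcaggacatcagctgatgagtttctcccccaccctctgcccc
Irf7: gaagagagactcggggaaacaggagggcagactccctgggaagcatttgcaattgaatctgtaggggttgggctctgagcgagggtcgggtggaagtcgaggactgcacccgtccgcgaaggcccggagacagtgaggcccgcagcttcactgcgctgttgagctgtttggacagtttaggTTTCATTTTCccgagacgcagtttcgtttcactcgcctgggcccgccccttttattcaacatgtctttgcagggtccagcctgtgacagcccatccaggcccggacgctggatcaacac
Rsad2: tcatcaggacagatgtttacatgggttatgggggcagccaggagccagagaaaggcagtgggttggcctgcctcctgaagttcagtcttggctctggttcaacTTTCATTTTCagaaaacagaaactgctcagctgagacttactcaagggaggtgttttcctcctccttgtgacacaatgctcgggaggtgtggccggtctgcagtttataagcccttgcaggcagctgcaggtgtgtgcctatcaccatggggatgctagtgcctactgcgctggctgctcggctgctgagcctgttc
A match describes the letters only and is not evidence that a factor binds there. Further elements were searched in measured list members only. In the Leydig list 1 higher, 2 lower and 6 uncalled genes had a promoter, and in the Sertoli list 5 higher and 8 uncalled genes. None of these promoters held the element CAAGGTCA of steroidogenic factor 1, which 1.52% of all promoters hold. In the cholesterol list 5 lower and 16 uncalled genes had a promoter. None held the sterol element, searched as ATCAC, any base and CCAC, which 0.269% of all promoters hold. With elements this rare and so few promoters, the lack of a match says nothing about these lists.

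Among secreted signals, several ligand genes were higher in the tubular fraction. Of 37 growth factor and niche ligand genes on the arrays 22 were measured, 6 were higher (27.3%) and 1 lower (4.55%, near the overall 4.96%), with a median log2 fold of 0.16. Wnt4, a WNT ligand of the developing gonad, had 1358 in tubular somatic cells and 223 in interstitial cells, 6.08-fold higher. Vegfc, which drives growth of lymph vessels, read 1545 in tubular somatic against 157 in interstitial cells, 9.82-fold higher. Ccn2, a matrix-associated growth factor, had 6980.3 in tubular somatic cells and 743 in interstitial cells, 9.39-fold higher. These 3 ligands were thus seen in both fractions above the floor. The Notch ligand Jag1 read 343 in tubular somatic against 45.5 in interstitial cells, at least 6.86-fold higher, and the platelet-derived growth factor Pdgfa 548 in tubular somatic against 109.9 in interstitial cells, 4.98-fold higher. The receptor gene Pdgfra lay on the other side, as given above. The sixth ligand was Dhh, and the lower one was Igf1. In all 6 higher ligand genes the tubular signal was at least 3-fold above every germ cell population, against 184 of all 431 higher genes.

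The transforming growth factor family went the same way in part. Tgfb2 and Tgfb3, which act on cell junctions and matrix, were both called. Tgfb2 had 761 in tubular somatic cells and 165 in interstitial cells, 4.62-fold higher, and Tgfb3 980.0 in tubular somatic cells and 119.7 in interstitial cells, 8.19-fold higher. In the list of inhibin, activin and antagonists 2 of 14 measured genes were higher (14.3%), Inha and Inhba, and 2 lower (14.3%), the matrix protein gene Tgfbi and the secreted glycoprotein gene Fstl1, at 6.88-fold lower and 10.2-fold lower. Their median log2 fold was 0.08, and its sign changed between settings. Fstl3, an activin antagonist, was called on a type B probe set alone, with 9943 in tubular somatic and 1052 in interstitial cells.

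Chemokines and cytokines were called in both directions, with 4 of 30 measured higher (13.3%, against 4.02% of all measured genes) and 5 lower (16.7%, against 4.96%). Besides Cxcl11 and both Tgfb genes, Ccl20, which attracts immature dendritic cells, was higher, at 331 in tubular somatic cells and 89.0 in interstitial cells, 3.72-fold higher. The lower genes were Cxcl12, Pf4, Ccl11, Ccl6 and Il33. Pf4, a chemokine of platelets and some macrophages, read 4.6 in tubular somatic against 981 in interstitial cells, at least 19.6-fold lower. Ccl11, the eotaxin that calls in eosinophils, had 21.4 in tubular somatic cells and 778 in interstitial cells, at least 15.6-fold lower, and Il33, an alarm cytokine stored in nuclei, 70.7 in tubular somatic cells and 385 in interstitial cells, 5.45-fold lower. Thus the chemokines higher in tubular somatic cells were Cxcl11 and Ccl20, and those of the interstitium included Cxcl12, Pf4, Ccl11 and Ccl6.

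Receptors and binding proteins were called in the interstitial direction alone. Of 25 measured hormone and growth factor receptor genes 4 were lower (16.0%, against 4.96% of all measured genes) and 0 higher, with a median log2 fold of -0.19. Egfr, the receptor of epidermal growth factor, had 43.0 in tubular somatic cells and 468 in interstitial cells, at least 9.37-fold lower, and a type B probe set gave 325 in tubular somatic against 4885.5 in interstitial cells. Fgfr2 and Bmpr1a, receptors of fibroblast growth factors and bone morphogenetic proteins, were 3.53-fold lower and 3.52-fold lower, and Pdgfra had the largest fold of the 4. Of 10 measured genes of the insulin-like growth factor system 4 were lower (40.0%) and 0 higher, with a median log2 fold of -1.87. Igfbp6, Igfbp7 and Igfbp5, which hold or modulate the growth factors outside the cell, were 9.28-fold lower, 5.66-fold lower and 5.45-fold lower, beside Igf1 itself. Igf1r, the receptor, read 252 in tubular somatic against 184 in interstitial cells, and Igfbp3 459 in tubular somatic against 271 in interstitial cells, both without a call. When each gene's probe sets were averaged, 2 receptor genes and 2 genes of the insulin-like growth factor system were lower.

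Junction genes leaned to the tubule. Of 22 measured genes 5 were higher (22.7%, against 4.02% of all measured genes) and 1 lower (4.55%), with a median log2 fold of 0.69. Cdh2, the N-cadherin of Sertoli and germ cell contacts, had 678 in tubular somatic cells and 80.9 in interstitial cells, 8.38-fold higher. Ocln, a tight junction protein of the blood-testis barrier, read 567 in tubular somatic against 129.5 in interstitial cells, 4.38-fold higher. Dsp, which links desmosomes to keratin, was 6.28-fold higher, Vcl, the vinculin of actin-linked contacts, 3.43-fold higher, and Nectin2, a Sertoli partner in adhesion to spermatids, 3.2-fold higher. The call of Vcl on this probe set is lost under quantile normalization. Other Vcl probe sets were called higher with larger folds, 12.7-fold on type A and 7.91-fold on type B. When each gene's probe sets were averaged 3 junction genes were higher. The lower gene was Cdh11, a cadherin of mesenchymal cells, at 32.1 in tubular somatic cells and 495 in interstitial cells, at least 9.9-fold lower. Its type B probe set went the other way, with a log2 fold of 1.00 and no call. The claudin gene Cldn1 was called lower on a type B probe set, at 108 in tubular somatic and 493 in interstitial cells, 4.56-fold lower. In 1 of the 5 higher genes the tubular signal was at least 3-fold above every germ cell population, against 184 of all 431 higher genes. Cdh2, for example, reached 457 in germ cells.

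Few adhesion receptors were called. Of 24 measured genes 3 were higher (12.5%, against 4.02% of all measured genes), Alcam, Itga9 and Itga3, and 2 were lower (8.33%, against 4.96%), Vcam1 and the leukocyte integrin gene Itgb2. On type A alone 1 was lower. Alcam, an immunoglobulin-type adhesion molecule, had 469.5 in tubular somatic cells and 75.9 in interstitial cells, 6.19-fold higher, and Itga9, an integrin alpha chain for tenascin and other ligands, 2459 in tubular somatic cells and 623 in interstitial cells, 3.95-fold higher. Vcam1, to which leukocytes attach, read 487 in tubular somatic against 2799 in interstitial cells, 5.75-fold lower.

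Basement membrane genes were lower for 3 of 19 measured (15.8%, against 4.96% of all measured genes) and higher for 1 (5.26%, near the overall 4.02%), with a median log2 fold of -0.70. Lama2, a laminin chain of muscle and mesenchyme, had 31.3 in tubular somatic cells and 920.4 in interstitial cells, at least 18.4-fold lower. Nid1, which links laminin to collagen IV, read 334 in tubular somatic against 1743 in interstitial cells, 5.21-fold lower, and Col15a1 was 5.29-fold lower. The higher gene, Col18a1, which holds the endostatin fragment, had 1072 in tubular somatic cells and 154 in interstitial cells, 6.97-fold higher, and its second probe set was called too. Scaling to the same 75th percentile or to a median log2 fold of 0 gave 2 higher genes.

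Proteases and their inhibitors were called for 10 of 32 measured genes, 4 higher (12.5%) and 6 lower (18.8%). Mmp3 and Mmp2, both matrix metalloproteinases, went opposite ways, as Mmp3 read 1056 in tubular somatic against 207 in interstitial cells, 5.1-fold higher, and Mmp2 558 in tubular somatic against 3695 in interstitial cells, 6.63-fold lower. Timp3, a matrix-bound inhibitor of such enzymes, had 1573 in tubular somatic cells and 361 in interstitial cells, 4.35-fold higher, and Spint2, an inhibitor of serine proteases at the cell surface, was 3.48-fold higher. Cst12 is described above. Serping1, the inhibitor of the first complement component, had 48.3 in tubular somatic cells and 2443 in interstitial cells, at least 48.9-fold lower. It was the 1 called gene among 12 measured complement genes (8.33%, near the overall 4.96%), 11 of which had a fold below 1. Adamts5, which cuts aggrecan, was at least 10.96-fold lower, followed by Ctss, Serpina3n and Serpinf1, between 7.52-fold lower and 6.87-fold lower.

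Transcription factors of the somatic gonad gave 1 higher gene, Wt1, and 5 lower among 19 measured (5.26% and 26.3%, against 4.02% and 4.96% of all measured genes). When each gene's probe sets were averaged, 0 were higher. Nr2f2, known as COUP-TFII, a factor of interstitial and Leydig precursor cells, had 46.9 in tubular somatic cells and 1865 in interstitial cells, at least 37.3-fold lower. Lhx9, a homeobox factor of the gonadal ridge, read 87.4 in tubular somatic against 749 in interstitial cells, 8.57-fold lower. Maf, known in mice from gonadal interstitial cells and macrophages, was 4.49-fold lower. The remaining 2, Klf4 and Egr1, are also in the immediate early list, in which 4 of 20 measured genes were lower (20.0%) and 1 higher (5.0%). Egr1 had 381 in tubular somatic cells and 1876 in interstitial cells, 4.92-fold lower, and Egr2 was 7.04-fold lower, Klf4 5.46-fold lower and Myc 3.84-fold lower. The higher one was Atf3, a stress factor, at 409 in tubular somatic cells and 71.1 in interstitial cells, 5.75-fold higher. The medians of both lists were near 0 and changed sign between settings, at -0.04 and 0.09.

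Cell cycle genes were lower for 7 of 33 measured (21.2%, against 4.96% of all measured genes) and higher for 0, and 28 had a fold below 1, with a median log2 fold of -0.73. Ccna2, the cyclin of DNA synthesis and entry to mitosis, had 144 in tubular somatic cells and 789 in interstitial cells, 5.48-fold lower. Top2a, which untangles DNA for mitosis, read 85.2 in tubular somatic against 327 in interstitial cells, 3.83-fold lower, and Cdkn2c, an inhibitor of cyclin-dependent kinases, 137 in tubular somatic against 682 in interstitial cells, 4.99-fold lower. The other 4 were Ccnb1, Ccnb2, Cdk1 and Cdc20. Quantile normalization ends the calls of Cdk1 and Cdc20, and the same 75th percentile that of Cdc20, and when each gene's probe sets were averaged 4 genes were lower. In 1 of the 7 genes the interstitial signal was the highest of 9 populations, and in the others a germ cell array was brighter.

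Energy metabolism showed few calls. Among 22 measured genes of glycolysis and lactate 1 was higher (4.55%, near the 4.02% of all measured genes), Pfkp, a phosphofructokinase, at 3899 in tubular somatic cells and 712 in interstitial cells, 5.48-fold higher. No gene among 26 measured of oxidative phosphorylation was called, and their median log2 fold was -0.0035. The retinoid list had 1 lower gene of 13 measured (7.69%, near the overall 4.96%), Aldh1a3, a retinoic acid-making enzyme, at 335 in tubular somatic cells and 1595 in interstitial cells, 4.76-fold lower, and 0 on type A alone. Of 30 measured antioxidant genes 3 were lower (10.0%, against 4.96% of all measured genes). Hmox1, which breaks down haem, had 299.5 in tubular somatic cells and 2332 in interstitial cells, 7.78-fold lower, Nqo1, a quinone reductase, was 4.24-fold lower and the metallothionein gene Mt2A 3.82-fold lower.

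The largest folds in the whole comparison repeat these themes in part. Among the 12 named genes with the largest folds in tubular somatic cells above the floor on both sides, 3 are interferon genes described above, namely Gbp4 (gene ID 310917), Isg15 (gene ID 298693) and Oas1a. Ildr2, an immunoglobulin-domain receptor, had 9110.3 in tubular somatic cells and 278 in interstitial cells, 32.7-fold higher, and all 3 of its probe sets were called. Mbnl3, a muscleblind splicing factor, read 1912 in tubular somatic against 64.0 in interstitial cells, 29.9-fold higher. Itga6, a laminin receptor chain, had 7991 in tubular somatic cells and 273 in interstitial cells, 29.3-fold higher, on 1 of 4 probe sets, while the other type B probe set read 174 in tubular somatic and 37.4 in interstitial cells. The actin-organising genes Vil1 and Cobl were 27.5-fold higher and 23.8-fold higher, with Vil1, or villin, at 3061 in tubular somatic cells and 111 in interstitial cells. A brighter Cobl probe set was called with a smaller fold, at 4397 in tubular somatic and 757 in interstitial cells. Scx, a bHLH factor best known from tendon, read 3589 in tubular somatic against 176 in interstitial cells, 20.3-fold higher. The semaphorin receptor gene Plxnc1, the dystrophin-complex gene Dtna and Lrrfip1 were between 23.5-fold higher and 22.1-fold higher, the first 2 called on 1 probe set each. On type A the Lrrfip1 probe sets were called with smaller folds. They read 1999.6 in tubular somatic against 466 in interstitial cells and 937 against 172. Of these 12 genes 11 were read on type B, as were 7 of the 12 with the largest folds in the other direction. Type B held 415 of the 789 higher probe sets. The tubular scale factor was the larger one on both types, at 3.274 against 1.047 on type B and 0.584 against 0.391 on type A. The part of array type and scaling in this ranking was not tested.

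With interstitial cells under the floor, the first after Mx2 was Tes, the focal adhesion protein testin, at 1857 in tubular somatic cells and 45.2 in interstitial cells, at least 37.1-fold higher. Its type B probe sets had smaller folds. One read 4309 in tubular somatic and 877 in interstitial cells and was called, and another read 177 and 110 and was not. Msi2, an RNA-binding protein of progenitor cells, was at least 27.3-fold higher on 1 probe set, but 4 of its 6 probe sets were not called. Epb41l4a, of the band 4.1 family, read 1085 in tubular somatic against 10.4 in interstitial cells, at least 21.7-fold higher, and reached 1203 in germ cells. Gna14, a G protein alpha subunit, had 935 in tubular somatic cells and 34.5 in interstitial cells, at least 18.7-fold higher, and at most 66.0 in germ cells. Ccn1, a matrix protein related to Ccn2, was at least 17.9-fold higher.

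On the interstitial side, where both fractions were above the floor, Cxcl12 had the largest fold, followed by Lnx1, a ubiquitin ligase for Numb, at 52.5 in tubular somatic cells and 3199 in interstitial cells, 60.9-fold lower. Steap4, an iron and copper reductase, had 61.9 in tubular somatic cells and 3441 in interstitial cells, 55.6-fold lower, and Scara5, a ferritin receptor, 57.8 in tubular somatic cells and 2625 in interstitial cells, 45.4-fold lower. Ccdc80, a secreted matrix protein, read 103 in tubular somatic against 3412 in interstitial cells, 33.3-fold lower. Fgl2, a fibrinogen-like protein secreted by immune cells, had 326 in tubular somatic cells and 9384 in interstitial cells, 28.8-fold lower, and all 4 of its probe sets were called. Clic2 had 198 in tubular somatic cells and 6319 in interstitial cells, 31.9-fold lower, Zfp503 was 26.6-fold lower and Enpp3, an enzyme that cleaves extracellular nucleotides, read 115 in tubular somatic against 2875 in interstitial cells. Cd163, Col6a1 and Lum complete the 12.

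Among genes with tubular somatic cells under the floor, the first was Pla2g2a, a secreted phospholipase (gene ID 29692), at 17.8 in tubular somatic cells and 4955 in interstitial cells, at least 99.1-fold lower. It read 1080.4 in germ cells on STO feeders on day 20 and 37.3 or less in the other 6 germ cell populations. Selenop, the selenium carrier of plasma, had 41.2 in tubular somatic cells and 3650.0 in interstitial cells, at least 73.0-fold lower, and Ddr2, a receptor for fibrillar collagen, 26.1 in tubular somatic cells and 2626 in interstitial cells, at least 52.5-fold lower. On type A a Ddr2 probe set was called with a smaller fold, at 108 in tubular somatic and 885 in interstitial cells. Another stayed under the floor in both. Pdgfra, Igf1 and the second Cxcl12 probe set make up the rest.

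**Figure D4:**
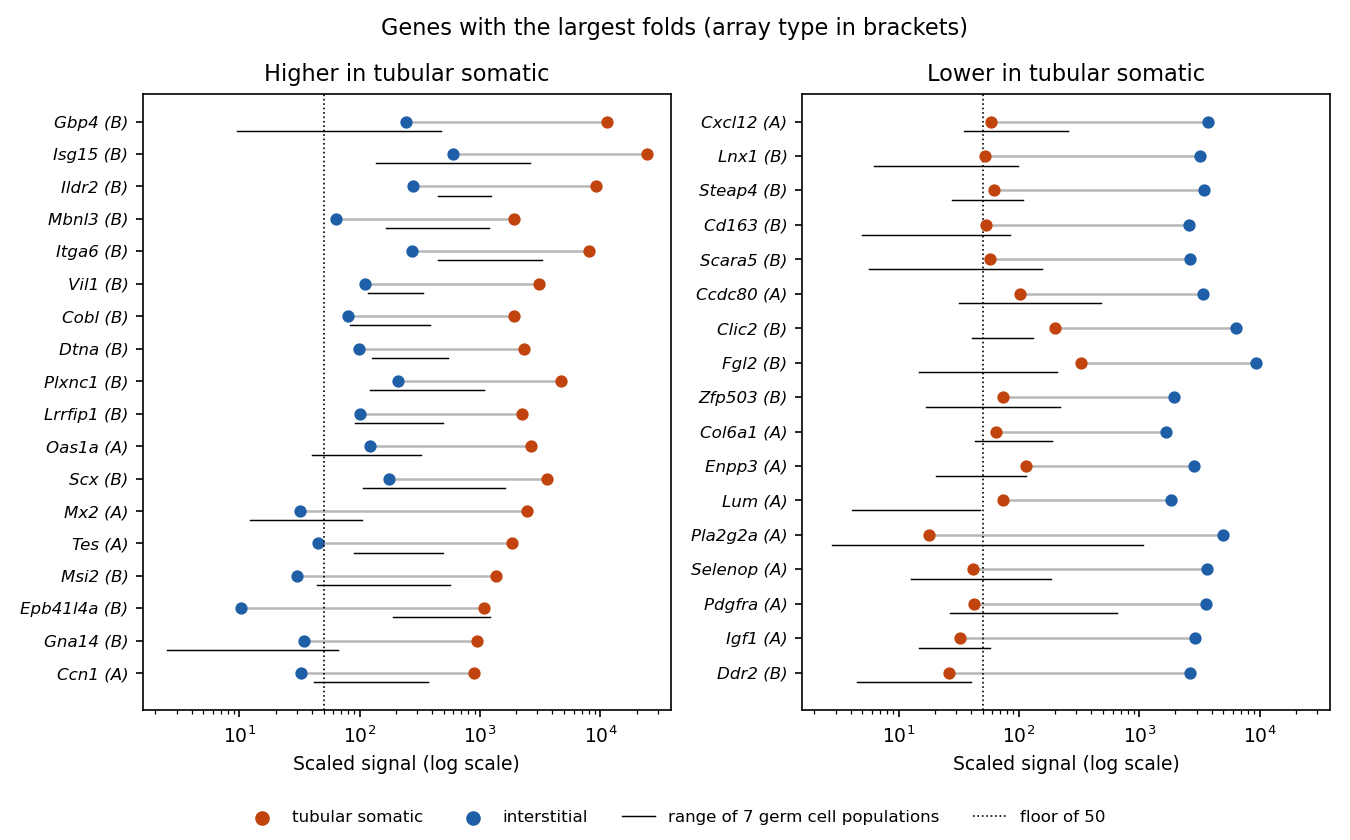
Scaled signals (log scale) of the genes with the largest folds, higher (left) and lower (right) in tubular somatic cells, with tubular somatic cells in orange, interstitial cells in blue and the range over 7 germ cell populations as a black line. The dotted line is the floor of 50, and the letter gives the array type. Tubular signals of the higher genes lie mostly above the germ cell range, as for Isg15 with 24229.7 in tubular somatic cells and 596 in interstitial cells, while Epb41l4a lies within it.

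Compared with the germ cell populations, 184 of the 431 higher genes had a tubular signal at least 3-fold above every one of them, and 103 had a germ cell population at least as bright. Of the 531 lower genes 246 had an interstitial signal at least 3-fold above every germ cell population, and 121 had one at least as bright. The brighter somatic side was chosen for being bright, so no more is read from these counts.

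Both array types could be set against each other. For 100 probe sets present on both, the log2 folds differed with a standard deviation per type of 0.25, so that 2 standard deviations are a 1.41-fold difference, and by at most 1.08. This spread covers the arrays and neither animals nor cell preparation. Among 482 genes read by different probe sets with a signal of at least 250 on each type, 66 were called on type A, of which 40 had the same call on type B, 64 a fold of the same sign and 0 the opposite call. Across these 482 genes the folds correlated with a Pearson r of 0.676, as a description, since genes are not independent.

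**Figure D5:**
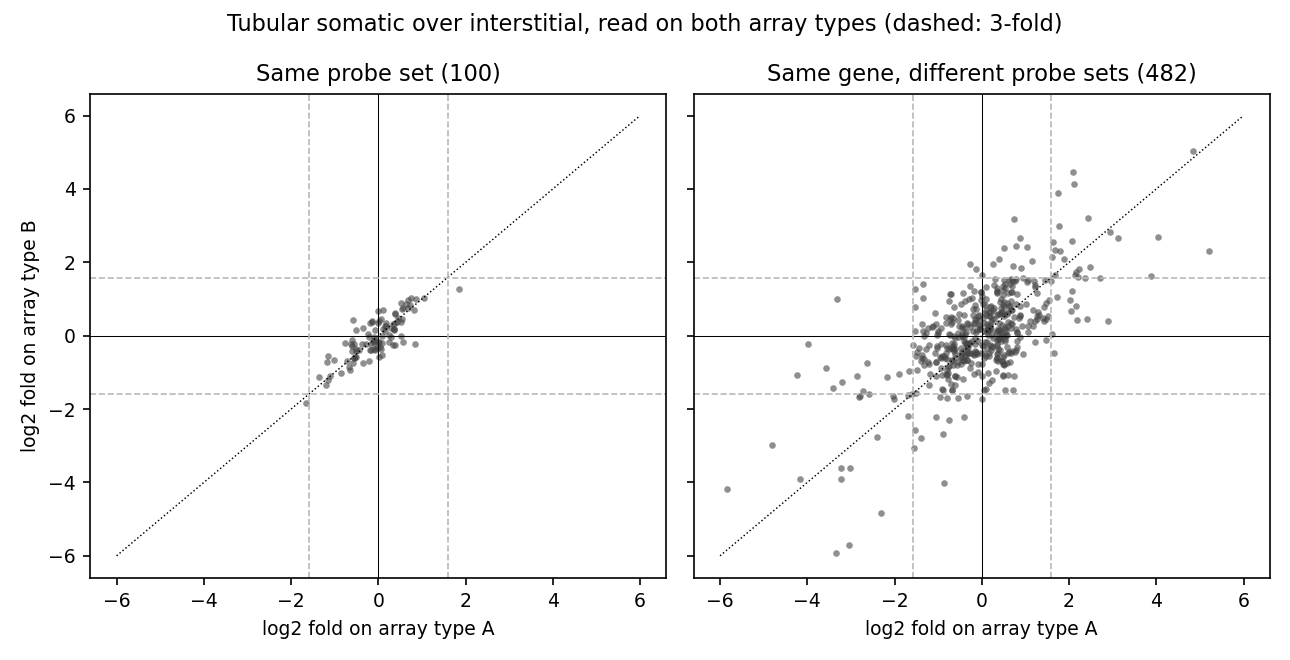
Log2 fold of tubular somatic over interstitial cells on array type B (vertical axis) against type A (horizontal axis), for 100 probe sets on both types (left) and 482 genes read by different probe sets (right). Dashed lines mark 3-fold, solid lines 0 and dotted lines equal folds. The shared probe sets lie near the line of equal folds, and genes read by different probe sets scatter more widely, with an r of 0.676.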

How the data were processed

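RNA amplified in 2 rounds from 9 rat testis cell populations had been put on 1-colour oligonucleotide arrays of 2 types, 1 array per population and type. Each deposited value is the linear intensity of a probe set, scaled by the authors to an average of 250 on every array, with 50 ng of total RNA as input, per the labels. Detection calls, per the labels with a Tau of 0.015, were not used here. Details of software and background correction were not given in the sources used here.

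Control probe sets (57 per type) were left out and 100 probe sets shared by the types entered once, through type A, which left 31042. In the annotation supplied for the platforms 12789 probe sets of type A had 1 gene, 312 several and 2822 none, and on type B 7570, 100 and 7663. Only those with 1 gene were named. Each gene took the values of 1 probe set, the one with the highest mean log2 signal over 9 populations, preferring type A. Signals were raised to 50 and the log2 fold of tubular somatic over interstitial cells was taken within each type, with a call at 3-fold or more and a brighter side of at least 250. The calls were tested on simulated data with known folds.

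The 31 gene lists, 9 of them cell type markers, hold 695 genes on the arrays, of which 555 were measured and 65 are in more than 1 list, so lists are not independent. The members and lists were chosen with earlier results of these data known. Genes were named by rule: in each direction the 12 largest folds with both sides above the floor, the 6 largest bounds, called list members and uncalled defining markers. With 1 array per population and type, no test was run. Alternatives changed the floor, fold, brightness, scaling and choice of probe set. Python 3.11.15, numpy 2.4.6, pandas 2.3.3 and matplotlib 3.10.9 were used.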

Additional observations from a re-analysis of the deposited data

How the results depend on the processing

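Counts of 789 higher and 983 lower probe sets came to 1699 and 1928 with a 2-fold threshold and to 378 and 485 with a 5-fold one. With a brighter side of at least 500 they were 535 and 637. Other floors, a brighter side of 100 and 3 other scalings kept each within 1.5 times, between 713 and 1064 higher and between 886 and 1233 lower, and the share of higher calls lay between 41.2% and 46.2% under the 3 scalings. The number of called list genes was between 106 and 132, against 129. Of 156 named probe sets 0 changed sign or call direction under the 3 other scalings. Changes of floor, fold or brightness cannot reverse a sign, so they are no check of direction. The named probe sets had been picked for folds of at least 3. Under the 3 scalings the median log2 fold of measured genes stayed between -0.0106 and 0.0649. With shifts this small a reversal could hardly occur, so the scalings are no check of direction either. Among the named probe sets 43 lost their call at a fold of 5, 31 with a brighter side of 500 and 5 at a floor of 100. The 75th percentile scaling ended the calls of Star, Vcan, Msmo1, Hsd17b7, Hsd17b11 and Cdc20, quantile normalization those of Psmb10, Vcl, Msmo1, Hsd17b7, Cdk1 and Cdc20, and median scaling those of Vcan and Msmo1. List medians changed sign for inhibin and activin genes (-0.20 to 0.26), gonadal transcription factors (-0.34 to 0.11), immediate early genes (-0.04 to 0.33), lymphocyte and mast cell genes (-0.48 to 0.14) and oxidative phosphorylation genes (-0.0035 to 0.10), and the growth factor median reached 1.78 with a floor of 100. The causes were not tested. No paired analysis was possible because each population has 1 array per type and no result comes from a test. Signal near the floor limits folds of dim genes.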

Other observations

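Of the called probe sets 219 higher and 303 lower ones carry no single gene name in the annotation, and their signals are not described further. Of 202 list genes with several probe sets 0 were called in both directions, and 15 list genes that were not called had another probe set that was. Among these, chosen after their values were seen, Nr4a3, an orphan nuclear receptor of the immediate early list, had 1615 in tubular somatic and 251 in interstitial cells on a type B probe set, 6.44-fold higher. Itgb5, an integrin beta chain, had 284 in tubular somatic and 50.2 in interstitial cells, 5.66-fold higher. Laptm5, a lysosomal protein of leukocytes, had 56.3 in tubular somatic and 1375 in interstitial cells, 24.4-fold lower.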
